A study of Homo sapiens with 2 samples.

Results

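PAX5 sites that stand alone in the genome were examined in NALM6, a human cell line established from B-cell precursor leukaemia. A site was counted as isolated when no other PAX5 summit lay within 300 kb of its own summit on the same chromosome. The members were thus chosen by the measured positions of the peaks themselves, on chromosomes 1 to 22 and X of hg19. Of 21313 peaks on these chromosomes, 582 were isolated and 20731 had a closer neighbour. The isolated share was 2.73% (95% Wilson interval 2.52 to 2.96, which covers counting error only).

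The data came from 1 chromatin immunoprecipitation (ChIP-seq) sample in which PAX5 was pulled down with an Abcam antibody, and from 1 input control that received none. Both samples were untreated NALM6 cells, kept for 4 days in phenol red-free RPMI with 10% serum and 2 mM glutamine. The peak call rested on 46190180 ChIP tags and 25416858 control tags. The control is titled RXL, a name the labels do not explain, and in the peak caller's header the name of its alignment holds both PAX5 and RXL. All folds and backgrounds below depend on this control. The background, also given as control reads, is the caller's local estimate at control depth. By its value it came from the summit window, a 1 kb or 10 kb window, or the genome mean, so it need not be a count at the summit. ChIP reads are counts at ChIP depth, so reads over background do not equal the fold. Peaks came as 1 list, called on pooled ChIP reads, with no separate replicates to compare, so no spread between samples could be set beside them and no p-value was computed. Intervals of medians are exact binomial (order-statistic) intervals over peaks, at the 95% level, and describe this 1 peak list.

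PAX5, a transcription factor with a paired DNA-binding domain, commits lymphoid progenitors to the B lineage and keeps mature B cells in that identity. It activates B-cell genes and represses genes of other lineages, and its gene is among those often altered in B-cell precursor leukaemia. Regulatory elements bound by such factors often occur in groups around the genes they serve, while other elements lie alone in long stretches that hold few genes. Peaks were not assigned to genes here, because the gene table at hand is on another genome build than the peaks.

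By the rule, isolated sites lay in wide empty stretches. The median distance from an isolated summit to its nearest neighbour was 501 kb (479 to 524), compared with 8.38 kb for the peaks with a closer neighbour. That difference is given by construction. On their emptier side the isolated summits had a median of 1245 kb without a peak. For 293 of the 582 (50.3%) the nearest summit was at least 500 kb away, for 89 (15.3%) at least 1 Mb and for 15 (2.58%) at least 2 Mb. The distances of all peaks formed a broad continuous distribution with no break at the limit. The 5 peaks just inside lay 300278 to 301232 bp from their nearest neighbour and had 23 to 121 ChIP reads at the summit and folds of 3.13 to 8.45. The 5 just outside lay 298107 to 299778 bp away, with 47 to 86 reads and folds of 2.54 to 6.51. Ranges of reads and fold overlapped across the limit.

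**Figure D1:**
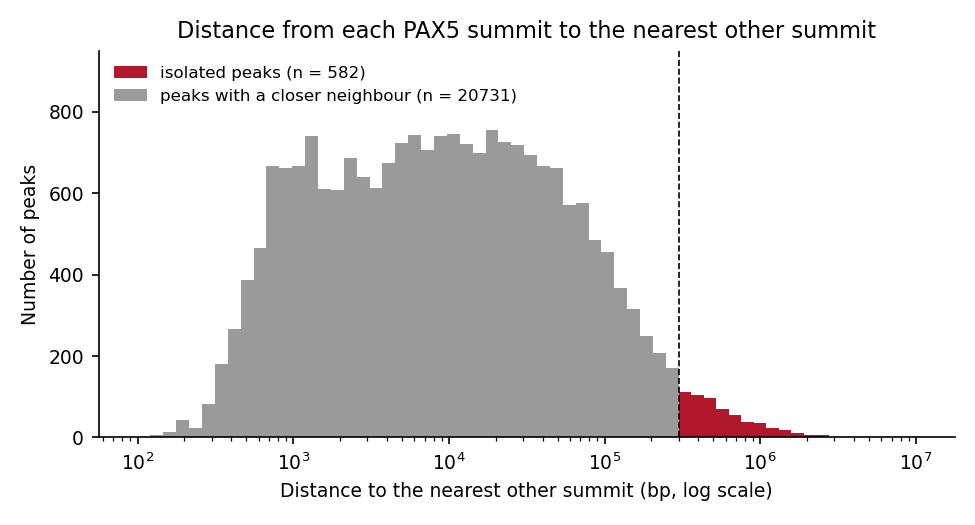
Histogram of the distance from each summit to the nearest other summit (bp, log scale) for 582 isolated peaks (red) and 20731 peaks with a closer neighbour (grey), with the 300 kb limit as a dashed line. The isolated peaks form the right tail of one continuous distribution, which reaches 4949 kb.

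The most remote summit of the genome was a weak one. It lay on chromosome 3 from 93781375 to 93781921, with 5583 kb free of peaks on its left and 4949 kb on its right, and had 49 ChIP reads at the summit against a control background of 9.0, which gave a fold of 2.80. The next 4 by distance to the nearest neighbour lay between 2673 and 3097 kb from it. The chromosome 2 peak from 187351057 to 187351513 had 69 reads and a fold of 3.37. The chromosome 11 peak from 39592726 to 39592970 had 44 reads and a fold of 3.45. On chromosome 4, a peak from 133187489 to 133187964 was the strongest of these 5, with 121 reads against 10.8 control reads and a fold of 5.73. The chromosome X peak from 138635954 to 138636319 had 44 reads, a fold of 2.80 and an empty stretch of 8717 kb on its right. Distance and strength were nearly unrelated among the isolated peaks (Spearman's rho 0.0566 for reads and 0.0767 for fold over 582 peaks of 1 library, given as a description).

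The longest empty stretches may hold bases that hg19 leaves unsequenced, such as centromeres, which the peak table does not mark. The widest span around any isolated summit, 33353 kb, belonged to a chromosome 9 peak from 71161668 to 71161893, nearly all of it on 1 side (32918 kb), with 49 reads and a fold of 2.80. A chromosome 1 peak from 143743955 to 143744346 had 22486 kb without a peak on its left and 1205 kb on its right, with 38 reads and a fold of 3.65. How much of such a stretch could have held a peak was not tested.

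A chromosome 6 peak from 68598689 to 68599560 was the strongest isolated site by fold. Its summit at 68599196 carried 202 ChIP reads (exact Poisson interval 175 to 232) against a control background of 3.6, set by the 1 kb window. The fold was 24.4 (21.2 to 28.0 with the background taken as fixed), and the −log10 q was 115. It had rank 3 by fold, 17 by −log10 q and 193 by reads among all 21313 peaks. The nearest summit lay 903 kb to the left and the next on the right 3183 kb away, so that 4086 kb around it held no other peak. Its fold was 1.66 times that of the second isolated peak. Their intervals did not overlap, but with the background taken as fixed they leave out the counting error of the control. Whether the order of these 2 folds holds was therefore not tested. At 872 bp it was also the 11th widest of the isolated peaks.

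That site closed a row of 5 consecutive isolated peaks on chromosome 6. The first lay at 58287453 to 58287852 with 47 reads and a fold of 4.48, and the second at 64345713 to 64346296 with 63 reads and a fold of 4.89. The third, from 64719888 to 64720309, had 149 reads (126 to 175) against 5.00 in the control and a fold of 13.8, the third highest of the isolated peaks. The fourth, from 67695779 to 67696235, had 100 reads over 9.0 and a fold of 5.6. Folds above 10 and folds between 4.48 and 5.6 thus stood side by side along this sparse stretch.

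By reads at the summit the order was another one. The highest count, 263 (232 to 297), belonged to a peak on chromosome 3, from 98730853 to 98731467, with 13 control reads and a fold of 10.4. The stretch without peaks on its left spanned 4949 kb and ended at the most remote summit named above. Next came a chromosome 6 peak from 147092038 to 147092593 that lay 807 kb from its nearest neighbour, with 236 reads (207 to 268) against 10.0 control reads and a fold of 11.9. The intervals of these 2 counts overlapped, so their order was not resolved at this depth. Of the 10 highest isolated peaks by fold, 3 were also among the 10 highest by reads, and 5 among the 10 highest by −log10 q.

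A pair of strong lone sites stood next to each other on chromosome 3. The left one, from 190439116 to 190439613, had 187 reads (161 to 216) against 14.0 control reads and a fold of 6.93. The right one, from 190822913 to 190823601, had 227 reads (198 to 259) over 11 and a fold of 10.5. They were 384 kb apart, with 1397 kb empty to the left of the first and 2488 kb to the right of the second. Both were among the 6 isolated peaks of most reads.

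On chromosome 7, a peak from 111720523 to 111721569 had 210 reads (183 to 240) against 8.0 control reads, and a fold of 12.95. It lay 1037 kb from the nearest summit and was, at 1047 bp, the third widest isolated peak. The widest, 1208 bp, lay on chromosome 8 from 116463813 to 116465020, with 164 reads over 9.0, a fold of 9.12 and no other summit within 2287 kb. A chromosome 11 peak from 7911685 to 7912865 was 1181 bp wide, with 128 reads over 11, a fold of 5.95 and a neighbour at 313 kb. Among the remaining peaks of the 10 with most reads, a chromosome 12 peak (78923954 to 78924536) had 184 reads and a fold of 8.52. A further chromosome 6 peak from 158185356 to 158186100 had 182 reads and a fold of 8.91. The chromosome 8 peak from 14810419 to 14811002 had 180 reads and a fold of 7.70, and was 1252 kb from any other summit. The chromosome 13 peak from 81357984 to 81358552 had 173 reads and a fold of 5.66, over the highest control background of these 10 (16 reads).

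The remaining peaks among the 10 of highest fold had between 85 and 152 reads. A chromosome 1 peak from 148241320 to 148242018 had only 85 reads (68 to 105), yet the second highest fold, 14.7, over 2.25 control reads. Its isolated neighbour on the right, from 149223390 to 149224405, had 97 reads over 4.05 and a fold of 10.8. A chromosome 14 peak from 25601945 to 25602329 had 104 reads over 3.38 and a fold of 13.3. On its right 5489 kb held no peak, while its left neighbour lay 688 kb away and 16 others lay within 1 Mb. A chromosome 3 peak from 79700563 to 79700965 had 108 reads over 3.6 and a fold of 13.1, with the nearest summit 1026 kb away. On chromosome 2, the peak from 184254342 to 184254777 had 96 reads over 3.6 and a fold of 11.7, and the peak from 123248560 to 123249056 had 152 reads over 6.53 and a fold of 11.2. The peak at 123248560 bordered an empty stretch of 4575 kb on its right, but its left neighbour lay 334 kb away and 11 others lay within 1 Mb.

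**Figure D2:**
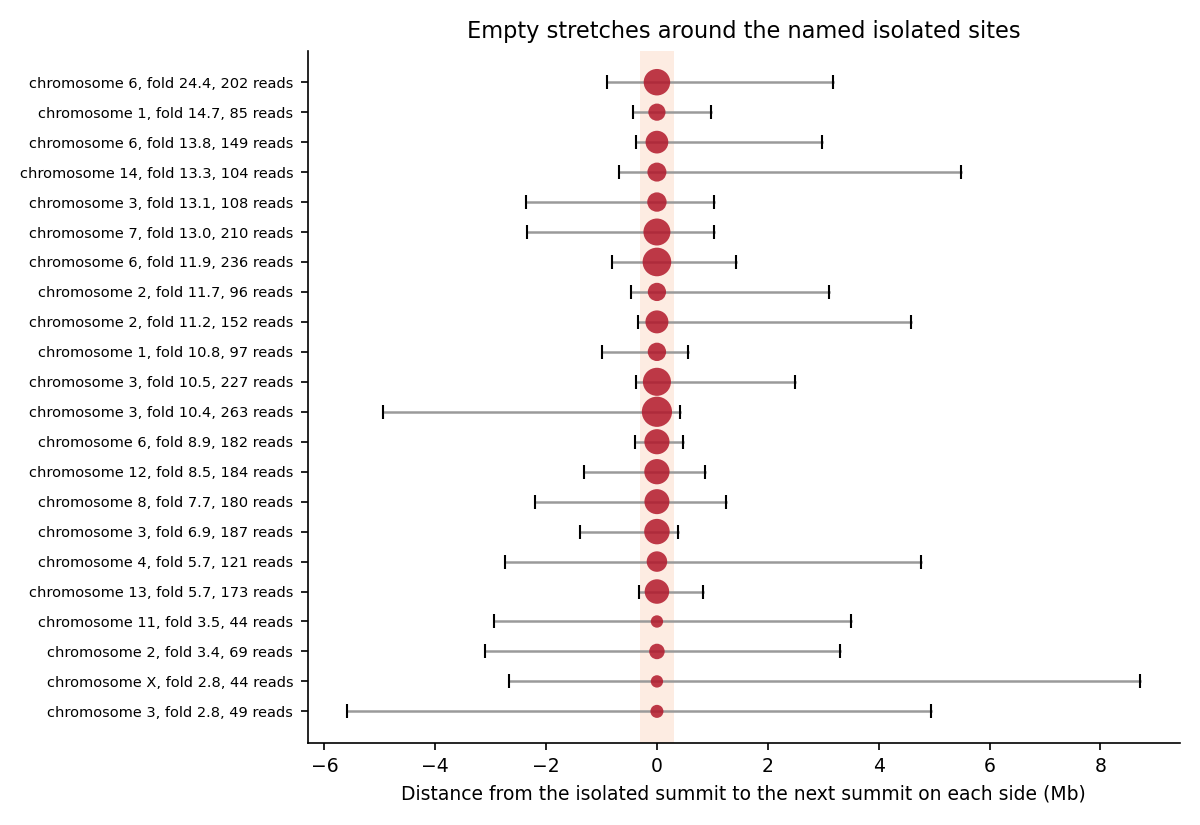
The 22 isolated sites named for most reads, highest fold or largest distance, ordered by fold from the top. Each grey line runs from the isolated summit (0) to the next summit on either side (Mb), the red point area is proportional to the ChIP reads at the summit, and the shaded band is 300 kb on each side; the chromosome 6 site with a fold of 24.4 heads the list, and the most remote summits, with folds between 2.80 and 5.73, fill most of its lower end.

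At the weak end, the fewest reads were 23 (15 to 35), found on chromosome 4 from 189852008 to 189852252 against 2.14 control reads, a fold of 4.35. A chromosome 12 peak from 19833896 to 19834206 and a chromosome 1 peak from 69376758 to 69377014 each had 24 reads, with folds of 3.98 and 4.37. At these 3 peaks the background stood near the control's genome mean of 2.12 reads, at 2.14, 2.57 and 2.25. The q-value threshold favours this, since a peak of few reads passes it only over a low background.

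Taken as a class, isolated peaks held fewer reads, were narrower and stood on less control background than peaks with a closer neighbour, while their fold was slightly higher. The median summit had 54 reads (52 to 56) at isolated peaks and 61 (61 to 62) at peaks with a closer neighbour, a ratio of 0.885. The median width was 336 bp (325 to 350) at isolated peaks and 385 bp (382 to 389) at the others, a ratio of 0.873. The median control background was 6.97 reads (6.30 to 7.0) at isolated peaks and 8.10 (8.0 to 8.10) at the others, a ratio of 0.861. The median fold was 4.32 (4.11 to 4.46) at isolated peaks and 3.88 (3.84 to 3.90) at the others, a ratio of 1.11. The distributions overlapped widely: reads had an interquartile range of 43 to 70 at isolated peaks and 48 to 82 at the others. Since position and height come from the same peak call, these are descriptions of the list and were not tested.

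A fold of at least 10 was found at 12 isolated peaks (2.06%, Wilson interval 1.18 to 3.57), beside 1.72% of all 21313 peaks. A fold of at least 5 was found at 208 (35.7%, 32.0 to 39.7), beside 25% of all peaks. Of the 100 highest peaks of the genome, 6 were isolated when ranked by fold, 4 by −log10 q, 3 by reads and none by width. Isolated peaks made up 2.73% of all peaks, and the counts by −log10 q and by reads lay near that share. Very wide sites were few among isolated peaks. A width of at least 1000 bp was reached by 5 of them (0.859%), compared with 680 (3.28%) of those with a closer neighbour. The width per read had a median of 6.36 bp at isolated peaks and 6.17 bp at the others. Within the isolated peaks, reads and width rose together (Spearman's rho 0.561), as they did among the others (0.592).

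**Figure D3:**
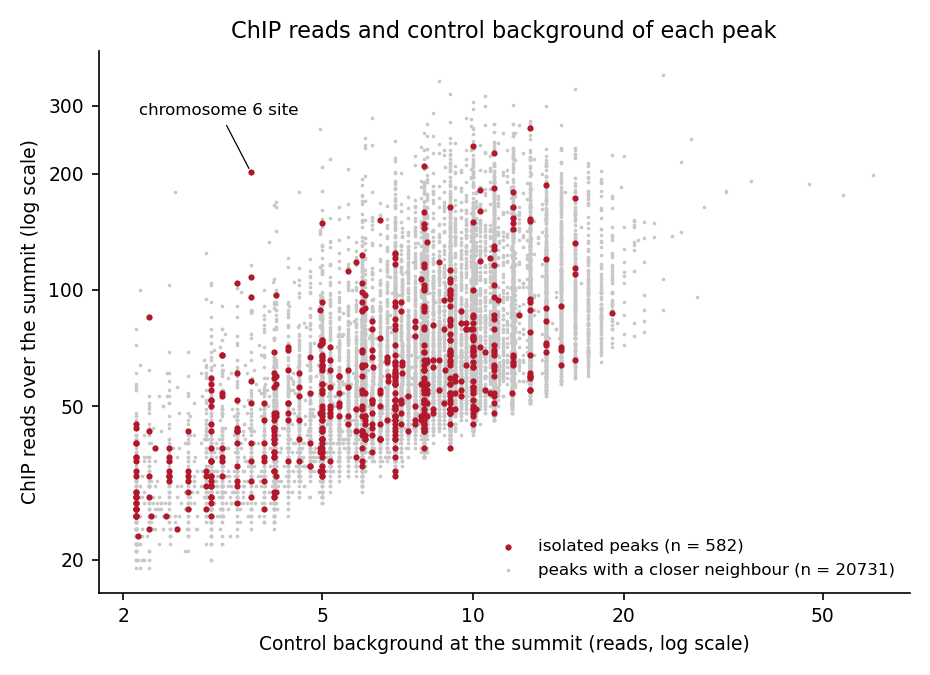
ChIP reads over the summit against control background (both log scale) for 582 isolated peaks (red) and 20731 peaks with a closer neighbour (grey), 1 point per peak. Isolated peaks overlap the cloud of the others but more often have a background under 4 reads (21.0%, compared with 7.38%). The chromosome 6 site, at 202 reads over 3.6, lies above the other isolated peaks of similar background.

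The control background moved with these differences. A background under 4 reads was found at 21.0% of the isolated peaks and at 7.38% of the others, and one of at least 10 reads at 15.3% of the isolated peaks and 29.4% of the others. Among peaks with a background under 4 reads, the median was 36 reads at both isolated peaks (33 to 39) and the others (35 to 36). From 4 to 6 reads of background, isolated peaks had 49 (47 to 54) and the others 46 (45 to 46). From 6 to 8 the isolated peaks had 53.5 (51 to 58) and the others 55 (54 to 55). From 8 to 10 the isolated peaks had 64.5 (59 to 69) and the others 65 (65 to 66), and above that the isolated peaks had 72 (69 to 86) and the others 77 (76 to 78). In 4 of these 5 ranges the intervals of the reads overlapped, the exception being 4 to 6, where isolated peaks were higher. The median fold of the isolated peaks was higher in 4 of the ranges, with intervals apart only from 4 to 6 reads (4.57, 4.28 to 5.20, at isolated peaks and 4.18, 4.15 to 4.23, at the others), and between 6 and 8 reads it was 3.79 (3.54 to 4.18) against 3.88 (3.84 to 3.92) for the others. The median width was lower at isolated peaks in 4 of the 5 ranges, but its intervals were apart only between 6 and 8 reads, with 332 bp (304 to 350) at isolated peaks and 368 bp (361 to 373) at the others. Of the isolated peaks, 24 (4.12%) stood on the genome mean of the control, compared with 161 (0.777%) of the others.

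Median reads did not follow distance in a single direction. They were 66 (65 to 67) for peaks whose nearest neighbour was 1 to 10 kb away and 57 (56 to 58) from 100 to 300 kb. In the first class beyond the limit, from 300 to 500 kb, the median was 52 (49 to 55), below the interval of the class before it. It was 56 (53 to 60) from 500 to 1000 kb and 57 (49 to 65) at 1000 kb or more. Median control background was 8.55 reads (8.55 to 9.0) from 1 to 10 kb and 6.07 (5.00 to 7.0) at 1000 kb or more. The median fold was 3.99 (3.95 to 4.02) from 1 to 10 kb, 3.96 (3.90 to 4.06) from 100 to 300 kb and 4.49 (4.05 to 4.91) in the most distant class. The median width was 420 bp (415 to 426) from 1 to 10 kb and 328 bp (315 to 374) in that class. Peaks with a neighbour under 1 kb were apart from this order, with the lowest median fold, 3.43 (3.39 to 3.47).

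**Figure D4:**
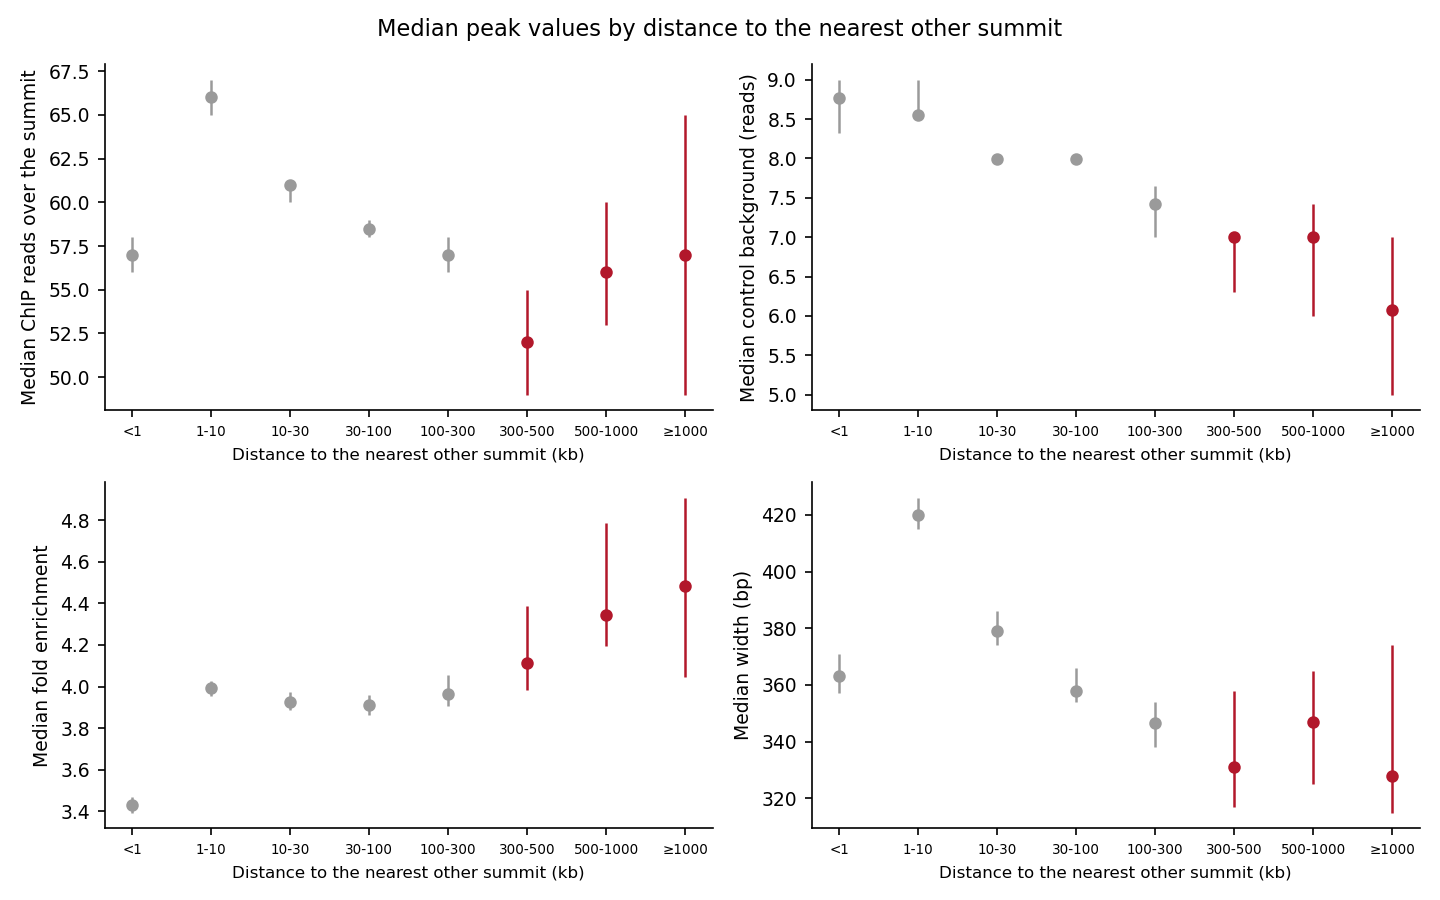
Median ChIP reads, control background, fold enrichment and width of peaks in 8 classes of distance to the nearest other summit (kb), with 95% order-statistic intervals as bars; red classes (289, 204 and 89 peaks) are isolated, grey ones have a closer neighbour. Median background is lowest (6.07) and median fold highest (4.49) in the most distant class, while median reads are lowest (52) from 300 to 500 kb, with intervals that overlap among the red classes.

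Peaks that bordered an empty stretch of at least 300 kb on 1 side only (2869 peaks) lay between the isolated peaks and those with no such stretch in these 4 medians. Their median was 58 reads (57 to 59), 352 bp (347 to 358) and a background of 7.88 (7.65 to 8.0), and their median fold was 3.98 (3.92 to 4.03). Peaks with no such stretch on either side had 62 reads (61 to 62), 391 bp (388 to 395), a background of 8.10 (8.10 to 8.32) and a fold of 3.85 (3.84 to 3.89). A fold of 10 was reached by 2.06% (1.18 to 3.57) of the isolated peaks, 1.60% (1.2 to 2.13) of those with 1 such stretch and 1.73% (1.55 to 1.93) of those with none, with overlapping intervals.

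Isolated sites were spread over all 23 chromosomes. The 5 chromosomes with fewest peaks per Mb held 170 isolated peaks among 2933 peaks. The 5 with most peaks per Mb held 29 among 5105. Chromosome 2 held 57, chromosomes 3 and 4 held 51 each, chromosome 1 held 45 and chromosome X 44. As a share of a chromosome's peaks, X came first with 11.2% (Wilson interval 8.47 to 14.7), followed by chromosome 4 with 6.93% (5.31 to 9.0) and chromosome 13 with 5.38% (3.67 to 7.82). Chromosomes 22, 17 and 19 had the smallest shares, with 1 of 736 peaks (0.136%), 3 of 1372 (0.219%) and 4 of 1189 (0.336%). Per 10 Mb there were 2.84 isolated sites on X and 0.296 on chromosome 22. Chromosome 12 had 2.70 isolated sites per 10 Mb at 8.34 peaks per Mb, and chromosome 4 had 2.67 at 3.86 peaks per Mb. Across the 23 chromosomes the isolated share and the peak density were inversely ordered (Spearman's rho -0.92), which the distance rule gives by construction.

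**Figure D5:**
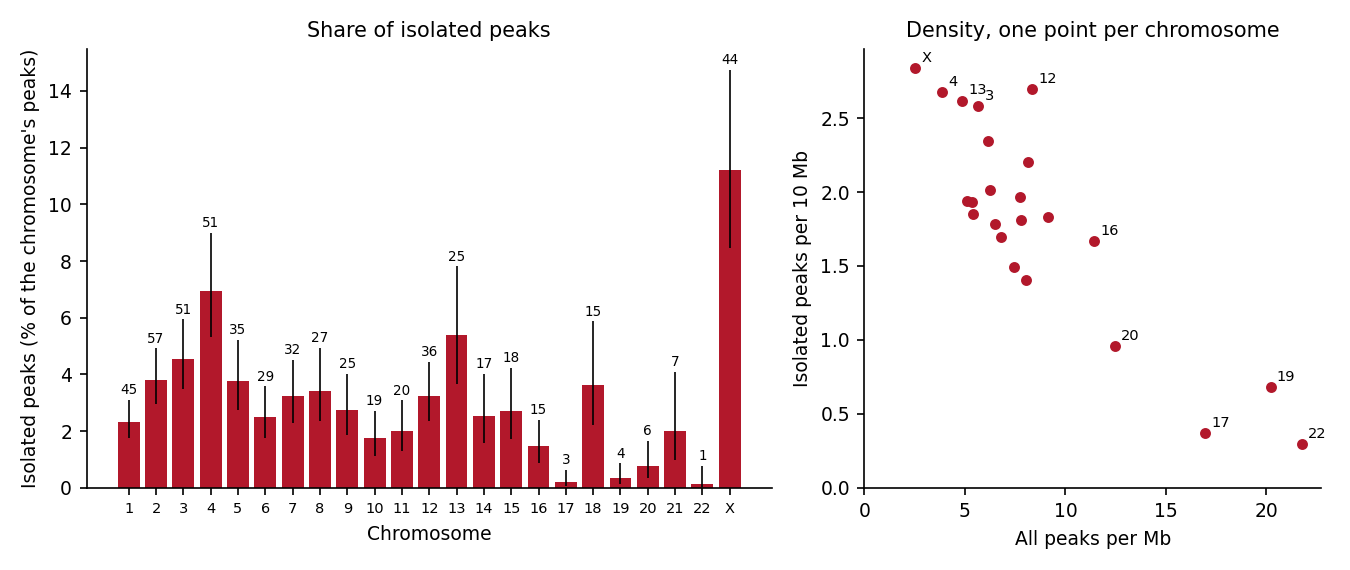
Left, isolated peaks as a percent of each chromosome's peaks, with 95% Wilson intervals and the number of isolated peaks above each bar. Right, isolated peaks per 10 Mb against all peaks per Mb, 1 point per chromosome; X (11.2%, 44 peaks) and chromosome 22 (0.136%, 1 peak) are the extremes, and chromosome 12 lies above chromosomes of like density.

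Within chromosomes the class differences mostly had the same direction. On 18 chromosomes with at least 10 isolated peaks, the median background was lower at isolated peaks than at the others on all 18, width on 17, and reads on 15. The median fold was higher on 16 of the 18, chromosomes 9 and 12 being the exceptions. The 3 with higher reads at isolated peaks were chromosome 16 (median 80 at isolated peaks and 61 at the others), chromosome 14 (71 at isolated peaks and 60 at the others) and chromosome 6 (64 at isolated peaks and 61 at the others). All chromosomes share the same pair of libraries and are no replicates.

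On chromosome X, isolated sites had moderate read counts throughout. The 44 peaks had between 26 and 78 reads with a median of 43 (39 to 47), compared with 45.5 (43 to 48) at the 348 X peaks with a closer neighbour. Their median fold was 4.69 (4.11 to 5.30), and that of the others on X 4.38 (4.29 to 4.57), with overlapping intervals. Isolated autosomal peaks had a median fold of 4.27 (4.08 to 4.43), an interval that also overlapped that of isolated X peaks. The median control background on X was 4.39 reads at isolated peaks and 4.61 at the others, below the 7.0 of isolated autosomal peaks. A fold of 10 was reached by none of the 44 (0%, Wilson interval up to 8.03) and by 13 of the 348 others (3.74%, 2.20 to 6.29), with overlapping intervals. The highest fold, 8.26, was at a peak from 76406077 to 76406468 with 45 reads against 2.12 control reads, 989 kb from the next summit. The longest row of consecutive isolated peaks in the genome was on X, 8 peaks between summits 80734806 and 100291880, or 19.6 Mb, with 26 to 69 reads and folds of 3.99 to 7.79. Another row of 7 lay between summits 70752840 and 77906578, with 30 to 73 reads.

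On chromosomes 22, 19 and 17, the 3 with most peaks per Mb, isolated sites had between 27 and 70 reads. The only one on chromosome 22, from 28387810 to 28388059, had 39 reads over 2.47 and a fold of 6.46. The 3 on chromosome 17 had 56, 33 and 43 reads and folds of 2.89, 4.79 and 7.59. The 4 on chromosome 19 had between 27 and 70 reads and folds of 3.07 to 5.41, and formed 2 neighbouring pairs, 688 and 389 kb apart. Stronger sites occurred on the next densest chromosomes, 20 and 16. On chromosome 16 a peak from 6933891 to 6934408 had 159 reads and a fold of 9.83, and on chromosome 20 a peak from 8823239 to 8823688 had 68 reads and a fold of 9.26.

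Part of the isolated sites adjoined one another. For 189 of the 582 (32.5%) the nearest summit also belonged to an isolated peak. The rule leaves the neighbour of an isolated peak with at least 300 kb free on 1 side, which favours this by construction. Single isolated peaks made up a similar share, 28.6%, of all 2037 runs of peaks separated by at least 300 kb. In all, 319 isolated peaks stood next to at least 1 other isolated peak in rows of 2 to 8, and 263 had none beside them. Of the 12 isolated peaks with a fold of at least 10, 11 were in such rows. That was 3.45% (Wilson interval 1.94 to 6.07) of the 319 in rows and 0.380% (0.0672 to 2.12) of the 263 outside them. These intervals overlapped, and the share over all peaks was 1.72%. The median fold was 4.33 (4.07 to 4.49) in rows and 4.31 (4.06 to 4.52) outside them. The median reads were 57 (54 to 61) in rows and 52 (48 to 55) outside them. Within 1 Mb to either side an isolated summit had a median of 4 others (interquartile range 1 to 8), compared with 28 (16 to 46) for the rest. Within 5 Mb the median was 42 at isolated summits, compared with 101 for the rest. The distance rule itself lowers these counts at isolated summits. The 160 isolated peaks with 8 or more others within 1 Mb had a median of 54 reads and a fold of 4.10 (3.84 to 4.42). Those with no other within 1 Mb had 57 reads and a fold of 4.49 (4.05 to 4.91), with overlapping intervals.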

How the data were processed

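The submitters' processing notes name BWA and hg19. Per the file headers, the authors called peaks in pooled ChIP reads over combined control reads with MACS2 2.1.1.20160309, extending 50 bp tags to 225 bp, at a q-value threshold of 0.05. No source used here says how many libraries were pooled. The deposited pileup signal is scaled to the control depth (factor 0.550), the deposited fold is the ratio of that pileup to the local control, and the deposited −log10 q comes from the caller's Poisson model. All peak values are the authors' own, and they served only to describe and order these peaks.

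ChIP reads were recovered by dividing the pileup by the factor (100% of pileups were whole reads within 0.005 units), and the background from pileup and fold with the caller's pseudocount of 1. A background within 0.01 reads of 2.12 was taken as the genome mean. The 23 peaks on chromosome Y and 25 on contigs were left out. Peaks named in the text are the 10 of most reads, the 10 of highest fold, the 5 most distant, the 3 widest, the 3 of fewest reads, the 5 on each side of the limit and the chromosome 6 site, and others beside them were chosen after their values were seen. The members and these rules were chosen with earlier results of these data known. No interval covers a spread between replicates. The scripts, tested on simulated peaks, ran under bedtools 2.31.1, scipy 1.17.1, pandas 2.3.3, numpy 2.4.6, matplotlib 3.10.9 and Python 3.11.15. Start sites and motifs, planned for an hg19 genome, were not analysed here.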

Additional observations from a re-analysis of the deposited data

How the results depend on the processing

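The number of isolated peaks followed the distance chosen, with 985 (4.62% of peaks) at 200 kb, 293 (1.37%) at 500 kb and 89 (0.418%) at 1 Mb, compared with 582 (2.73%) at 300 kb. The share was 3.25% with peaks within 1000 bp joined, 4.79% with those within 10 kb joined (676 sites) and 4.38% among peaks with a −log10 q of at least 5 (679), where the neighbours that fell out no longer counted. At 1 Mb the ratio of isolated peaks to the others was 0.934 for reads, 1.15 for fold and 0.759 for background. With joining at 10 kb it was 0.792 for width, which then spans several peaks, and 1.05 for fold. Among peaks with a background of 6 to 8 reads the reads ratio was 0.973 and the fold ratio fell below 1 to 0.978. A fold of at least 10 was reached by 0.694% of the 144 isolated peaks in that range. The same share was not computed for the other peaks of that range. The cause of the differences between settings was not tested. Of 78 values under all alternatives, 61 stayed within the interval of the value reported or, for the number of peaks, within 1.5 times it. All 582 isolated peaks were in the cleaned list with identical borders, and that list gave 583. The alternatives of joining at 10 kb, of a fixed background range and of ratios within chromosomes were chosen after seeing the data. Alternative windows for start sites and motifs were not run, for want of hg19 annotation and sequence in this work. No paired analysis was possible because there was 1 ChIP and 1 control sample. Depth limits the order of the strongest sites. With the background taken as fixed, their counting intervals overlap beyond the first by fold. These intervals leave out the counting error of the control, so they do not settle the first place either.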

Other observations

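Some PAX5 loci stood alone but were missed by a rule on single summits, because 2 peaks lay side by side. The peaks formed 2037 runs separated by at least 300 kb, of which 582 (28.6%) were single peaks, 291 (14.3%) pairs and 164 (8.05%) runs of 3. Of the pairs, 80 had both summits within 10 kb. The strongest such pair held the highest fold of the whole list. It lay on chromosome 17 from 212916 to 215060, where summits 1146 bp apart had 180 and 161 reads over backgrounds of 2.54 and 5.00, with folds of 28.2 and 14.9. No peak lay to its left on the chromosome, and the next on its right was 403 kb away. A chromosome X pair from 45615940 to 45617996 had 100 reads over 4.05 and a fold of 11.1 at its first summit, 30 reads and a fold of 3.92 at its second, and at least 787 kb without peaks on either side. A chromosome 2 pair from 87768000 to 87769102 had folds of 6.64 and 10.7.

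The strongest peak of a run was higher in longer runs. Its median was 54 reads and a fold of 4.32 in single peaks, 71 and 4.91 in pairs, 81 and 5.51 in runs of 3 and 208.5 and 11.7 in runs of over 50, an order that the greater number of peaks to choose from favours by construction. At the other extreme from the isolated sites, 1 run on chromosome 17 from 72199734 to 81104449 held 377 peaks over 8905 kb. Stretches of at least 300 kb without a peak numbered 2014, or 9.46% of all gaps between neighbouring summits, and took up 67.7% of the 2940 Mb between the outermost summits of the chromosomes. An isolated peak stood at an edge of 959 of them.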
